A study of Homo sapiens with 3 samples.

Results

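The 4 HOX clusters were described through 30 binding sites, 19 of the lncRNA SRA and 11 of the RNA helicase p68, out of 22030 sites in the 2 deposited lists (7899 SRA and 14131 p68 sites). The cells were NTERA2, a human embryonal carcinoma line that behaves as a pluripotent stem cell, grown in DMEM with 10% FBS, without any treatment or second condition. SRA was recovered with its chromatin by ChIRP-seq, in which biotinylated oligonucleotides complementary to the RNA pull down the DNA crosslinked to it, and p68 (the product of DDX5) was mapped by ChIP-seq with an antibody, each in 3 biological replicates. Input chromatin was not analysed here. A site belonged to a HOX window when at least 1 bp of it lay in the cluster or within 100 kb of either end. In hg19 the clusters were taken as chr7:27132000-27247000 for HOXA (115.0 kb), chr17:46606000-46807000 for HOXB (201.0 kb), chr12:54332000-54450000 for HOXC (118.0 kb) and chr2:176957000-177055000 for HOXD (98.0 kb). The windows with their flanks were 315.0, 401.0, 318.0 and 298.0 kb long in the same order. Each list holds only the chromosome, start and end of the sites that survived the intersection of the replicates. Read depth and the spread between replicates are therefore unknown, and every interval below covers counting error only.

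HOX genes encode homeodomain transcription factors that give the cells of the embryo their position along the head to tail axis. They sit in clusters in which the order of the genes on the chromosome follows the order of the body regions where they act, with low-numbered genes used towards the head and high-numbered genes towards the tail. Trithorax group (TrxG) and polycomb proteins were first known as the factors that keep HOX genes on or off. In pluripotent cells many HOX promoters carry the methylated H3K4 and H3K27 marks of both systems at once, the bivalent state, and the genes are mostly silent. SRA is an RNA that the study examined for its contact with both systems, and p68 is a DEAD box helicase that binds SRA.

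The 38 member genes were all found in a RefSeq gene table of the assembly GRCh38.p14, which was used only for names and for the order of genes. HOXA held 10 members (HOXA2, HOXA3, HOXA4, HOXA5, HOXA6, HOXA7, HOXA9, HOXA10, HOXA11 and HOXA13), with the low-numbered genes at the lower coordinates. HOXB held 10 (HOXB1 to HOXB9 and HOXB13), in the same direction. HOXC held 9 (HOXC4, HOXC5, HOXC6, HOXC8, HOXC9, HOXC10, HOXC11, HOXC12 and HOXC13) and HOXD held 9 (HOXD1, HOXD3, HOXD4, HOXD8, HOXD9, HOXD10, HOXD11, HOXD12 and HOXD13). In these clusters the low-numbered genes lie at the higher coordinates. By number, 7 members were anterior (groups 1 to 3), 15 central (4 to 8) and 16 posterior (9 to 13). No annotation of hg19 was used here, so a site is placed along its cluster and is not assigned to a single gene. For the same reason the count of members with a site at their start was not made.

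The SRA sites rest on hybridization of 29 probes of 20 nt, and the probe sequences were therefore searched in the promoters of HOX members (RefSeq, GRCh38.p14, 250 bases before to 50 after the start, both strands). Promoters were at hand for 20 of the 38 members (52.6%), too few for a statement on the HOX genes as a group, and that check is void. The closest pairs of a probe and a HOX promoter are shown because, among the promoters at hand, a probe reads most like the DNA there. Other DNA of the members was not searched. Each pair is written 5′ to 3′ on the strand that reads like the probe, and capitals mark the bases that are identical.
Probe 12: TGttGcCTGCGGAgGCgAGG
HOXA7 promoter: TGggGtCTGCGGAcGCcAGG
Probe 12: TGTTGCctGCGgAGgCGAgG
HOXD12 promoter: TGTTGCgaGCGcAGcCGAaG
Both stretches differed from probe 12 at 5 of the 20 bases. Of all 35116 promoters in the table, 9.33% held a stretch with 5 mismatches or fewer to some probe. Of the 27 HOX promoters at hand, 2 did. HOXA7 encodes a central and HOXD12 a posterior HOX protein. The sites themselves could not be searched, since a sequence of hg19 was not used here. The paper states that its SRA data were screened for homology to the probes. It reports no significant number of sequences with 2 mismatches or fewer.

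HOXD was the cluster in which SRA sites lay inside the cluster and nowhere else in the window. All 5 SRA sites overlapped the cluster, and none lay in its 100 kb flanks. They were chr2:177005525-177007141 (1617 bp), chr2:177018238-177020891 (2654 bp), chr2:177034307-177035799 (1493 bp), chr2:177039952-177041728 (1777 bp) and chr2:177051457-177053157 (1701 bp). The gene table runs from EVX2, a homeobox gene beside the cluster, through HOXD13 at the lower coordinates to HOXD1 and MTX2, a gene of mitochondrial transport, at the higher ones. Measured from the end with HOXD1, the midpoints of the SRA sites lay at 2.75%, 14.4%, 20.4%, 36.2% and 49.7% of the length of the cluster. No midpoint of an SRA site thus lay beyond the middle, on the side of HOXD13 and the other high-numbered genes. The site nearest the middle of the cluster straddled it.

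The density of SRA sites in the HOXD cluster was 5.10 per 100 kb (95% exact Poisson interval 1.66 to 11.9), against 0.256 per 100 kb over chromosome 2. In the whole HOXD window it was 1.68 per 100 kb (0.545 to 3.92). Of the 812 other windows of the same size on chromosome 2, 3.94% held at least 5 SRA sites. At the size of the cluster without flanks, 10 of 2475 other windows (0.404%) held at least 5. With neighbouring sites joined over gaps of up to 10 kb (3 groups in HOXD), 7.76% of the windows held at least as many, and of the windows within 10 Mb 4 of 66 held at least 5 sites. Around the cluster there were 8 SRA sites within 1 Mb of its middle, 5 of them in the cluster, and 22 within 2 Mb (0.550 per 100 kb, above the mean of the chromosome). On the side of HOXD13 the next SRA site was chr2:175866601-175869542, and the stretch without SRA sites that ended in the cluster was 1136 kb long, exceeded by 48 of 620 such stretches on the chromosome. On the side of HOXD1 the next SRA site, chr2:177189169-177191499, began 34.2 kb outside the window. SRA sites covered 9.43% of the HOXD cluster.

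The HOXD window held 3 p68 sites, at chr2:176944608-176945581 (974 bp), chr2:176994460-176995222 (763 bp) and chr2:177071610-177072381 (772 bp). Of these 3, only the second overlapped the cluster, at 61.4% of its length from the end with HOXD1. It lay 10.3 kb from the nearest SRA site, on the side of the high-numbered genes. The other two lay 11.4 kb beyond the end with HOXD13 and 16.6 kb beyond the end with HOXD1, so that the SRA sites of HOXD stood between p68 sites. At least 3 p68 sites were found in 20.1% of the other windows on chromosome 2, and at least 1 in 30.2% of windows of the size of the cluster.

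**Figure D1:**
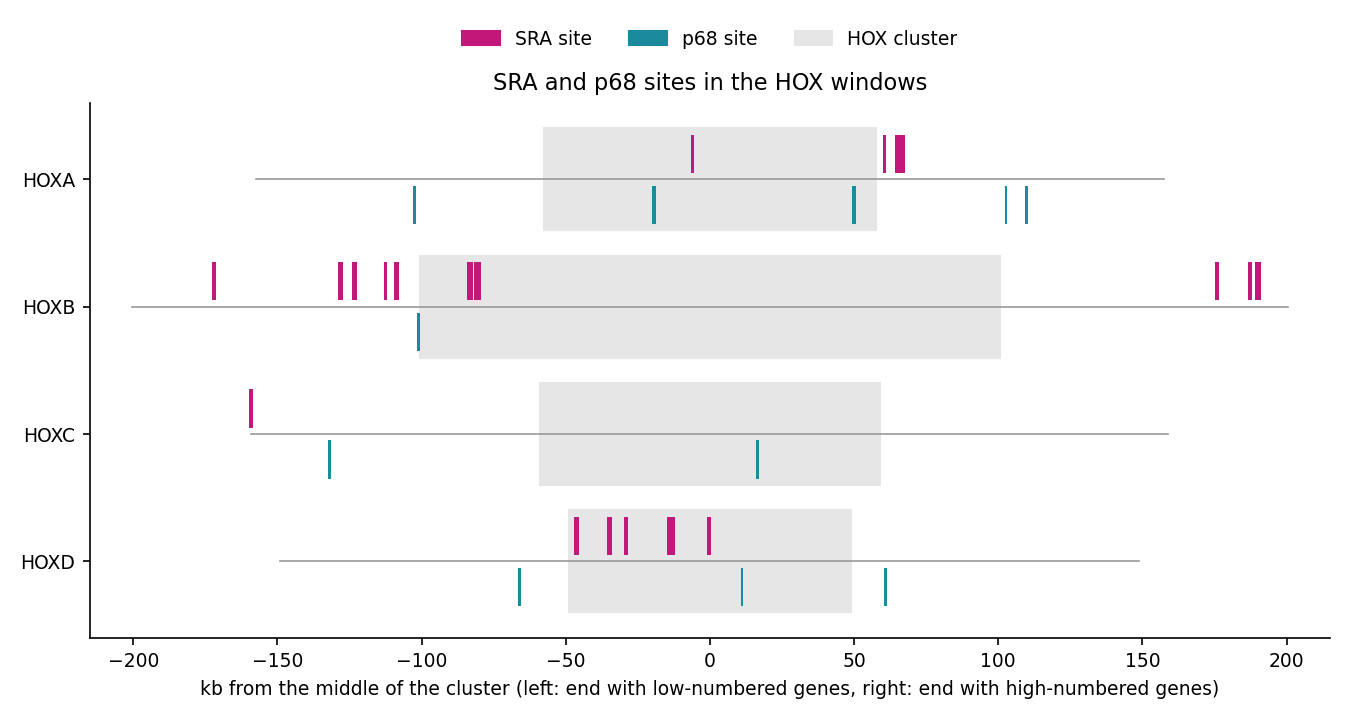
Positions of SRA (upper bars) and p68 sites (lower bars) in the 4 HOX windows, in kb from the middle of each cluster, drawn to scale and turned so that the end with the low-numbered genes is on the left. Grey boxes are the clusters and lines the windows. All 8 SRA sites in clusters lie left of or at the middle, and HOXC holds none. In HOXA, 2 more SRA sites lie just beyond the right end of the cluster.

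The HOXB window held the most SRA sites, 10, most of them outside the cluster. The cluster itself had 2, chr17:46622125-46624231 (2107 bp) and chr17:46624736-46627244 (2509 bp, the widest SRA site of the window), which were 0.504 kb apart. Their midpoints lay at 8.55% and 9.95% of the cluster from the end with HOXB1, the gene of the hindbrain. The rest of the cluster, from there to HOXB13, had no SRA site. A further 5 SRA sites lay in the flank beyond HOXB1, where SKAP1, a gene of T cell signalling, is the neighbour in the gene table, at 7.23 to 70.7 kb from the cluster. In the flank beyond HOXB13, where TTLL6 and CALCOCO2 follow, there were 3, at 74.6 to 88.4 kb. The stretch without SRA sites from the second HOXB site to these was 254.3 kb long.

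SRA sites in the HOXB window had a density of 2.49 per 100 kb (1.20 to 4.59), against 0.458 over chromosome 17. At least 10 SRA sites were found in 4.52% of 199 other windows of this size. Without the flanks, at least 2 SRA sites were found in 20.8% of 399 windows of the size of the cluster. The region around HOXB was rich in SRA sites, with 30 of them within 0.5 Mb and 54 within 1 Mb of the middle of the cluster. The windows within 10 Mb held at least 10 SRA sites in 6 of 48 cases. In the cluster itself 0.995 SRA sites per 100 kb (0.121 to 3.59) were found against 4.0 (1.73 to 7.88) in the flanks, with overlapping intervals. On the side of HOXB13 the next SRA site began 0.627 kb outside the window. On the side of HOXB1 the next SRA site lay 166.6 kb outside it.

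A single p68 site lay in the HOXB window, chr17:46604901-46606014 (1114 bp). It reached into the cluster at the end with HOXB1 by its last bases, and its midpoint lay outside. It was 6.13 kb from the nearest SRA site, the shortest gap between the lists in any HOX window, and 416.6 kb from the nearest other p68 site. At least 1 p68 site was found in 58.8% of the other windows on chromosome 17, and in 38.6% of windows of the size of the cluster. With 10 SRA sites and 1 p68 site, SRA sites made up 90.9% of the sites in the HOXB window (95% Wilson interval 62.3 to 98.4%), against 60.6% over chromosome 17. The interval counts each site singly, though the 10 SRA sites made 5 groups of neighbours within 10 kb. More SRA than p68 sites were found in 30.7% of the other windows.

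In the HOXA window 3 SRA sites were found. One lay in the cluster, chr7:27182946-27184080 (1135 bp), with its midpoint at 44.8% from the end with HOXA2. The other two, chr7:27249410-27250483 (1074 bp) and chr7:27253799-27257326 (3528 bp, the widest SRA site of any HOX window), followed each other just beyond the end with HOXA13, at 2.41 and 6.80 kb from it. In the gene table HOTTIP, a lncRNA known for bringing TrxG to HOXA genes, and then EVX1 follow HOXA13. Only their order was used, so whether they lie inside or beyond the end of the cluster was not determined. The flank on the side of SKAP2 held no SRA site. The density in the window was 0.952 per 100 kb (0.196 to 2.78), against 0.305 over chromosome 7, and 14.7% of 502 other windows held at least 3. For the cluster alone, 16.5% of 1380 windows of its size held at least 1. Of the windows within 10 Mb, 37 of 62 held at least 3 SRA sites. SRA sites were frequent around HOXA, with 34 within 1 Mb of the middle of the cluster, and its count of 3 equalled the median of the windows within 10 Mb.

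HOXA had more p68 sites than the other HOX windows, with 5. Those in the cluster were chr7:27169388-27170697 (1310 bp), at 33.1% from the end with HOXA2, and chr7:27238910-27240284 (1375 bp), at 93.6%, near HOXA13. The latter was the widest p68 site of any HOX window and lay 9.12 kb from the SRA sites beyond HOXA13. The former lay 12.2 kb from the SRA site of the cluster. The others were chr7:27086634-27087749 (1116 bp) on the side of SKAP2, and chr7:27291966-27292616 (651 bp) and chr7:27298855-27299887 (1033 bp) on the side of EVX1. At least 5 p68 sites were found in 18.7% of the other windows on chromosome 7, and at least 2 in 20% of windows of the size of the cluster.

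HOXC was the cluster without SRA sites. The only SRA site of its window, chr12:54549572-54550795 (1224 bp), lay 99.6 kb beyond the end with HOXC4 and crossed the edge of the window, with 429 bp inside. At least 1 SRA site was found in 39.5% of 418 other windows on chromosome 12, and 77.1% of windows of the size of the cluster held none. A count of 0 in the cluster allows up to 2.54 SRA sites per 100 kb. The surroundings were not poor in SRA, with 24 sites within 0.5 Mb of the middle of the cluster and 41 within 1 Mb. The stretch without SRA sites that spanned the cluster ran from 54140998 to 54549571 (408.6 kb), and 66 of the 450 stretches on chromosome 12 were longer. HOXC is also the cluster that holds HOTAIR, a lncRNA known for its contact with PRC2, which the gene table lists between HOXC12 and HOXC11. The HOXC window held 2 p68 sites, chr12:54373974-54374894 (921 bp) in the cluster, at 64.0% of its length from the end with HOXC4, and chr12:54522390-54523359 (970 bp), 72.4 kb beyond that end. The first was 174.7 kb and the second 26.2 kb from the nearest SRA site. At least 2 p68 sites were found in 43.5% of the other windows, and at least 1 in 43.5% of windows of the size of the cluster.

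**Figure D2:**
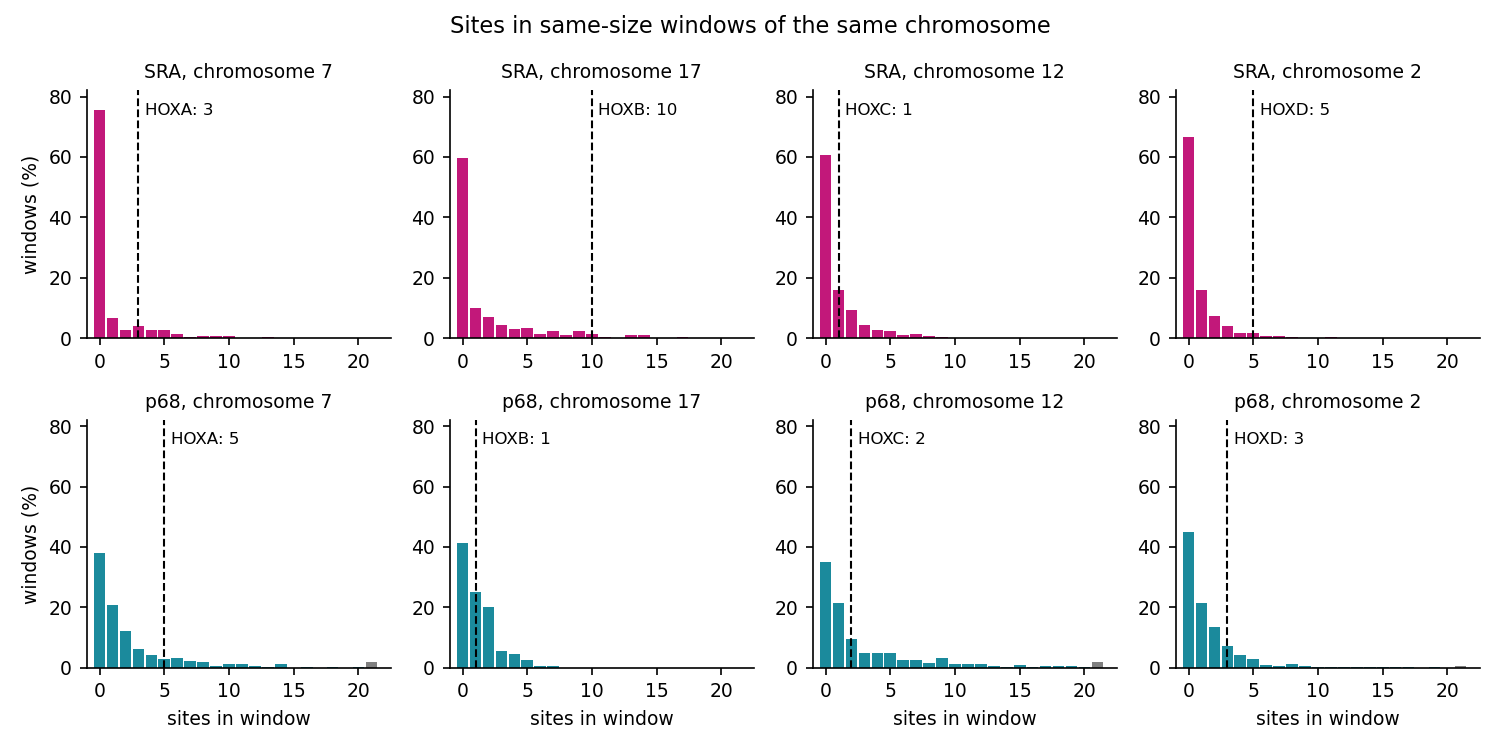
Percent of same-size windows of the chromosome (vertical axis) by the number of sites they hold (horizontal axis), for SRA above and p68 below. The dashed line is the HOX window, which is not among the windows, and a grey bar at the right edge sums windows with more sites than the axis shows. The SRA counts of HOXB and HOXD lie in the upper tail, while 39.5% of the windows on chromosome 12 hold as many SRA sites as HOXC or more.

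Over the clusters together, 8 SRA sites and 5 p68 sites overlapped a cluster. The midpoints of all 8 SRA sites lay nearer the end with the low-numbered genes, at 2.75% to 49.7% of the length of their cluster (median 17.4%). This holds for 1 site of HOXA, 2 of HOXB and 5 of HOXD. It depends on where a cluster ends, since 2 further SRA sites of HOXA lay 2.41 and 6.80 kb beyond the end with HOXA13. Sites of 1 cluster are neighbours and not replicates, and no test was made of this arrangement, which was described after the positions had been seen. Of the p68 sites, 2 of 5 lay nearer that end, 1 in HOXA and the site at the edge of HOXB, and those of HOXC, HOXD and the second of HOXA lay at 61.4% to 93.6%. Of the 8 SRA sites, 7 lay on that side of the middle over their whole length. Neighbouring SRA sites, joined over gaps of up to 10 kb, made 5 groups in the clusters. By density, the 4 clusters had 1.5 SRA sites per 100 kb (0.649 to 2.96) and the flanks 1.25 (0.599 to 2.30), counted by midpoints. For p68 the values were 0.752 (0.205 to 1.93) and 0.875 (0.352 to 1.80). The intervals overlapped for both lists, so that no difference between the pooled clusters and flanks was shown, and none was tested. Pooling joins opposite values. SRA sites stood at 5.10 per 100 kb in the HOXD cluster and 0 in its flanks, but at 0.995 in the HOXB cluster and 4.0 in its flanks.

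None of the 19 SRA sites of the HOX windows had a p68 site within 500 bp of its edges. The limit that a count of 0 of 19 allows is 15.8% (95% Wilson interval 0 to 16.8%). On the rest of the 4 chromosomes 183 of 1906 SRA sites (9.60%, 8.36 to 11.0%) had one, a share that lies within this limit. A lack of sharing at HOX clusters was therefore not detectable with 19 sites. Counted from p68, 0 of 11 sites had an SRA site within 500 bp (limit 27.3%), against 4.39% on the rest of these chromosomes. The gap to the nearest p68 site ran from 6.13 kb in HOXB to 139.5 kb, also in HOXB, with a median of 20.9 kb. On the rest of the 4 chromosomes the median gap was 35.2 kb. A p68 site within 10 kb was found for 2 of the 19 SRA sites (10.5%), 1 in HOXA and 1 in HOXB, and for 28.0% of those on the rest of these chromosomes. Counted from p68 the order was the opposite, with an SRA site within 10 kb of 2 of the 11 p68 sites (18.2%) against 14% elsewhere, and a median gap of 26.2 kb against 126.8 kb. The HOX windows thus held sites of both lists at distances of 6.13 kb or more. Each of the 4 windows had at least 1 site of both lists, HOXC only through the SRA site at its edge (0 SRA sites by midpoint, wholly inside or with 50 kb flanks). Sites of both lists were found in 20.3% of the other windows on chromosome 7, 29.1% on chromosome 17, 32.3% on chromosome 12 and 25.5% on chromosome 2.

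The mix of the factors differed in value between the clusters, with more SRA than p68 sites in HOXB (10 and 1) and HOXD (5 and 3) and fewer in HOXA (3 and 5) and HOXC (1 and 2). In HOXD, SRA sites made up 62.5% of the sites (30.6 to 86.3%), against 32.0% over chromosome 2, and 15.5% of the other windows held more SRA than p68 sites. In HOXA the share was 37.5% (13.7 to 69.4%), against 25.9% over chromosome 7, and in HOXC 33.3% (6.15 to 79.2%), against 24.7% over chromosome 12. In all 4 windows the share was thus above that of the chromosome in value, in HOXC only through the SRA site that crossed the edge of its window. By midpoint, wholly inside or with 50 kb flanks, HOXC held 0 SRA sites, and its share was then below that of chromosome 12. The share of the chromosome lay inside the interval for HOXA, HOXC and HOXD, and below it for HOXB. These intervals count neighbouring sites as if they were independent, and the 10 SRA sites of HOXB made only 5 groups (83.3% of its groups). The HOXB interval is therefore too narrow, and a departure from the chromosome was not tested. All 4 intervals overlapped. For a test, sites within 10 kb of each other were counted once, which gave 2 SRA and 4 p68 groups in HOXA, 5 and 1 in HOXB, 1 and 2 in HOXC, and 3 and 3 in HOXD. None of the 6 pairs of clusters differed by Fisher's exact test (two-sided, Benjamini-Hochberg over the 6). The lowest adjusted p was 0.727, for HOXB against HOXA and for HOXB against HOXC, where the share of SRA groups differed by 50 percentage points. With the SRA and p68 totals of each pair held as observed, the smallest adjusted p for a pair low alone was 0.0714 (Fisher's exact test). Other totals, or several low pairs together, could give smaller values. The groups were few, so that the test does not show that the clusters were alike.

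**Figure D3:**
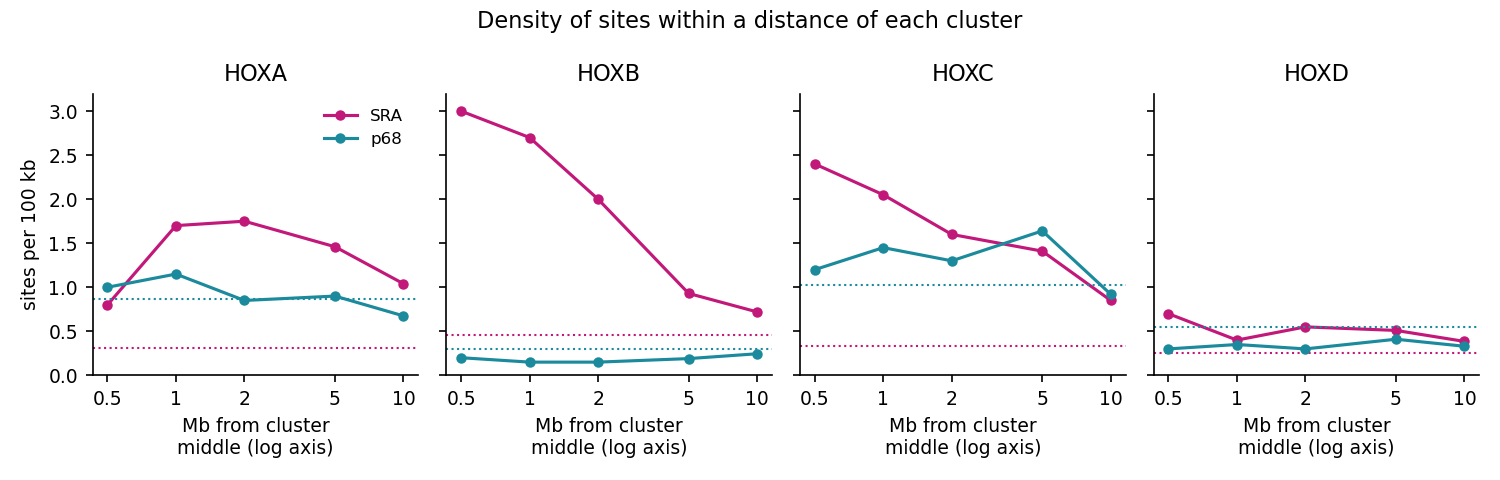
Sites per 100 kb (vertical axis) within 0.5, 1, 2, 5 and 10 Mb of the middle of each cluster (horizontal axis, logarithmic), with the mean over the chromosome as dotted lines. SRA sites were dense around HOXB (3.00 per 100 kb within 0.5 Mb) and HOXC (2.40), while HOXD stood at 0.700.

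The SRA sites of the HOX windows were on the narrow side of the list. Their median width was 1700 bp (1018 to 3528 bp), against 2086 bp on the rest of the 4 chromosomes and 2227 bp in the whole list. Of the 19, 4 were wider than the median of the list and 9 were narrower than its lower quartile of 1636 bp. The narrowest, 1018 bp, was chr17:46593376-46594393 in the flank of HOXB, and 0.354% of SRA sites in the list were narrower. For p68 the median was 974.0 bp (651 to 1375 bp), against 1270 bp on the rest of these chromosomes and 1185 bp in the list. Among the 11 p68 sites 2 were wider than the list median, both in the HOXA cluster, and 4 were below the lower quartile of 945.0 bp. Widths of sites are not replicate measurements, and no test was made.

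**Figure D4:**
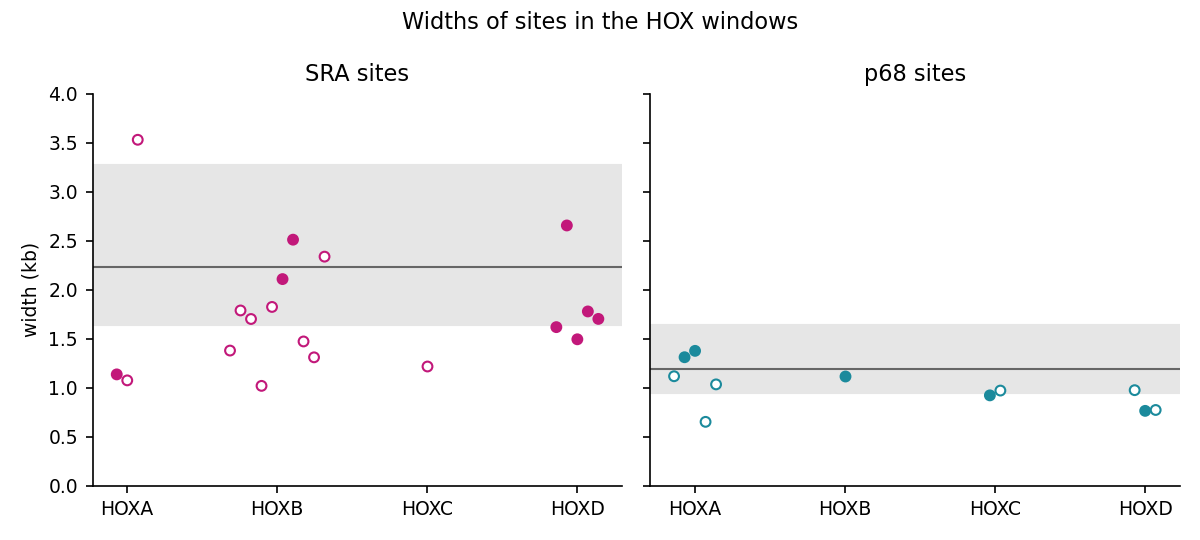
Width of each SRA site (left) and p68 site (right) of the HOX windows in kb, with filled circles for sites that overlap a cluster and open circles for those in flanks. The grey band runs between the quartiles of the whole list and the line is its median. Most SRA sites lie below the line, and the widest, 3528 bp, lies beyond HOXA13.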

How the data were processed

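Single-end 50 bp reads were aligned by the authors to hg19. The aligner is not given in the sources used here, and the submitters' processing notes name CASAVA 1.8.2. After SAMtools had taken out duplicates and alignments below quality 20, peaks came from MACS 1.4.2 (p threshold 1e-04 for SRA, 1e-05 for p68). The authors intersected the lists of 3 biological replicates with ChIPpeakAnno and subtracted LacZ probe peaks from the SRA list with bedtools. A site seen in a single replicate is therefore absent, and the thresholds of the lists differ. The deposited values are positions in bp, without a count or score, so depth is unknown. Coordinates are printed 1-based.

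HOX windows were the clusters plus 100 kb on each side. Each chromosome was tiled outwards from the HOX window in non-overlapping windows of the same size within the span of the lists. These are fixed places, and no p was taken from them. Densities have exact Poisson and shares Wilson intervals (95%). Groups join sites within 10 kb. Clusters were compared by Fisher's exact test. The limit for a count of 0 is 3 counts. Sites printed singly are those in clusters, the widest of each list and window, and all where a window held 6 or fewer, plus sites next to a window edge and the narrowest SRA site, which were chosen after their values were seen. The members and gene lists were chosen with earlier results of these data known. The code was tested on simulated sites. Python 3.11.15, numpy 2.4.6, scipy 1.17.1, pandas 2.3.3 and matplotlib 3.10.9 were used. Alternatives were other flanks, counting rules, tilings, joins and distances for sharing.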

Additional observations from a re-analysis of the deposited data

How the results depend on the processing

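No paired analysis was possible because each assay has 1 list without replicates, and no replicate could be left out. The alternative for starts of genes was not run, since no annotation of hg19 was used. Counts of sites by side of the cluster middle, and their alternatives, were chosen after seeing the data. Of 153 alternatives over 43 results, 129 concerned counts, widths and percents, and 73 of these stayed within 1.5 times the value or, for percents of windows and shared sites, its Wilson interval. None of the 24 alternatives for pairs of clusters passed 0.05 (lowest adjusted p = 0.245, Fisher's exact test on single sites). That setting counted neighbouring sites as if they were independent. With the groups of the report and the SRA and p68 totals of each pair held as observed, a pair low alone could reach 0.0714 (smallest adjusted p, Fisher's exact test). The smallest value possible was not computed for the alternatives, so they do not show that the clusters were alike. HOXB minus HOXD turned from 33.3 to -25.0 percentage points without flanks (Fisher's exact test, adjusted p = 1.00). The differences themselves moved widely, HOXC minus HOXD from -75.0 to 0, HOXA minus HOXB from -53.4 to -16.7, and HOXA minus HOXC, 0 in the report, from -11.7 to 33.3. No SRA site had a p68 site by any rule for sharing, also with 200 kb on each side (0 of 31). The cause of the moves below was not tested beyond the settings themselves, which change the length or the sites counted.

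SRA sites in HOXA were 1 without flanks, 6 with 200 kb and 1 among wide sites (above the list median). In HOXB they were 2 without flanks, 6 with 50 kb, 5 when joined within 10 kb and 2 among wide sites. In HOXC they were 0 without flanks, with 50 kb, by midpoint, wholly inside and among wide sites, and 6 with 200 kb. In HOXD they were 3 when joined and 1 among wide sites. For p68, HOXA gave 2 without flanks, 8 with 200 kb and 2 among wide sites. HOXB gave 0 among wide sites. HOXC gave 1 without flanks and with 50 kb, 4 with 200 kb and 0 among wide sites. HOXD gave 1 without flanks and 0 among wide sites.

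The percent of other windows with at least as many SRA sites changed with the windows compared. Within 10 Mb it was 59.7% for HOXA, 12.5% for HOXB, 59.7% for HOXC and 6.06% for HOXD. Among windows with a site of either list it was 22.3% for HOXA, 54.6% for HOXC and 6.24% for HOXD. Without flanks it was 20.8% for HOXB and 0.404% for HOXD, and with joined sites 11.1% for HOXB and 7.76% for HOXD. For p68 it was 12.9%, 50% and 12.1% within 10 Mb for HOXA, HOXB and HOXD, and 28.3%, 84.2%, 60.3% and 31.8% among windows with a site for HOXA to HOXD. Without flanks it was 38.6% for HOXB and 30.2% for HOXD.

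SRA sites covered 0.987% of HOXA without flanks and 4.0% with 200 kb, 2.30% of HOXB without flanks, 0% of HOXC without flanks and 1.82% with 200 kb, and 9.43% of HOXD without flanks. The p68 sites covered 0.00746% of HOXB without flanks and 0.504% of HOXD with 200 kb. The HOXB cluster held 1 p68 site by overlap and 0 by midpoint. On the low-numbered side of the middle there were 5 SRA groups when joined, and 1 p68 site wholly inside.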
